A study of Mus musculus with 8 samples.

Results

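The 39 Hox genes of the mouse were followed, chosen by symbol alone: Hoxa, Hoxb, Hoxc or Hoxd followed only by a number, without antisense or host transcripts. Of these, 33 had a transcript cluster under their own symbol among the 22206 clusters of the array, each with 1 cluster. The others are not analysed here. The cells were postnatal mouse tail-tip fibroblasts (TTFs), and all 8 cultures, controls included, had been infected with a retrovirus mix encoding GHMT, that is Gata4, Hand2, Mef2c and Tbx5, transcription factors that push fibroblasts towards a heart muscle fate. The study asked whether blocking the cyclooxygenase-2, prostaglandin E2 (PGE2) and EP4 receptor route improves that conversion. DMSO, the solvent, is named among the additions, and the cultures called GHMT below received no inhibitor. TTF set 1 had 1 array each of GHMT, GHMT with diclofenac (a cyclooxygenase inhibitor), GHMT with an EP4 antagonist and GHMT with diclofenac plus PGE2. TTF set 2 had 1 array each of GHMT, GHMT with the EP4 antagonist, GHMT with a TGFb inhibitor and GHMT with a Wnt inhibitor. The GHMT and EP4 antagonist groups thus had 2 arrays each and the other 4 groups 1 each. The mouse strain, the age beyond postnatal, the doses, the harvest time, the promoter that drives the factors and whether a set came from 1 animal or a pool are not stated in the labels. Every Hox level below is therefore that of a GHMT-transduced culture, and untransduced fibroblasts are not analysed here.

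Hox genes encode homeodomain transcription factors and lie side by side in 4 clusters. Genes of the same number in different clusters are paralogues, and their number follows their place in the cluster: low numbers act towards the head and high numbers towards the trunk, tail and limb ends. Fibroblasts are known to keep in culture a Hox pattern that reflects the body site they were taken from. Hox proteins bind DNA together with the Pbx, Meis and Pknox cofactors, and the clusters are held silent by Polycomb and active by Trithorax complexes.

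Array quality is given in ranges. A gene was called above background where its log2 value exceeded the 95th percentile of the 23 background probe sets of the same array, a level of 5.73 to 5.99. The median over all clusters lay between 5.28 and 5.29 on the arrays of set 1 but between 5.10 and 5.14 on those of set 2, and the lower quartile between 3.87 and 3.93 against 3.52 and 3.54, so the low values of set 2 were lower as deposited. The number of arrays limits the precision. All 11 measured fibroblast markers were above background in all 8 arrays, against 0 of 7 macrophage and leukocyte, 0 of 6 endothelial and 0 of 7 keratinocyte markers. Of 6 skeletal muscle markers 2 were above background in all 8 arrays, of 5 cartilage and bone markers 1, of 5 adipocyte markers 1, of 3 Schwann and neural markers 1 and of 6 cardiomyocyte markers 5. Over all clusters the share was 39.7%. In these bulk samples fewer cells of a type and less RNA per cell cannot be told apart.

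Detection differed between genes and clusters. Of the 33 genes, 9 lay above background in all 8 arrays, 7 in some arrays and 17 in 0 arrays. The 9 make up 27.3% of the measured genes, while 39.7% of all clusters were above background in all 8 arrays. The share above background in 0 arrays was 51.5% for the Hox genes and 50.7% for all clusters, so it was near that of any genes. The genes detected throughout were 5 of the 9 measured genes of the Hoxc cluster (Hoxc6, Hoxc10, Hoxc11, Hoxc12, Hoxc13), 3 of 9 in Hoxb (Hoxb2, Hoxb7, Hoxb9), 1 of 8 in Hoxa (Hoxa10) and 0 of 7 in Hoxd. By paralogue number, 5 of the 12 measured genes of groups 10 to 13 and 4 of the 21 of groups 1 to 9 were detected in all 8 arrays. With the highest background probe set of each array as the limit, Hoxb2, Hoxc11 and Hoxc13 dropped out and 6 genes were left. A log2 value depends on the probe set, so levels are compared between arrays and not between genes. Detection depends on the probe set too, and the counts by cluster and paralogue number carry this limit. A gene at background may still be expressed.

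**Figure D1:**
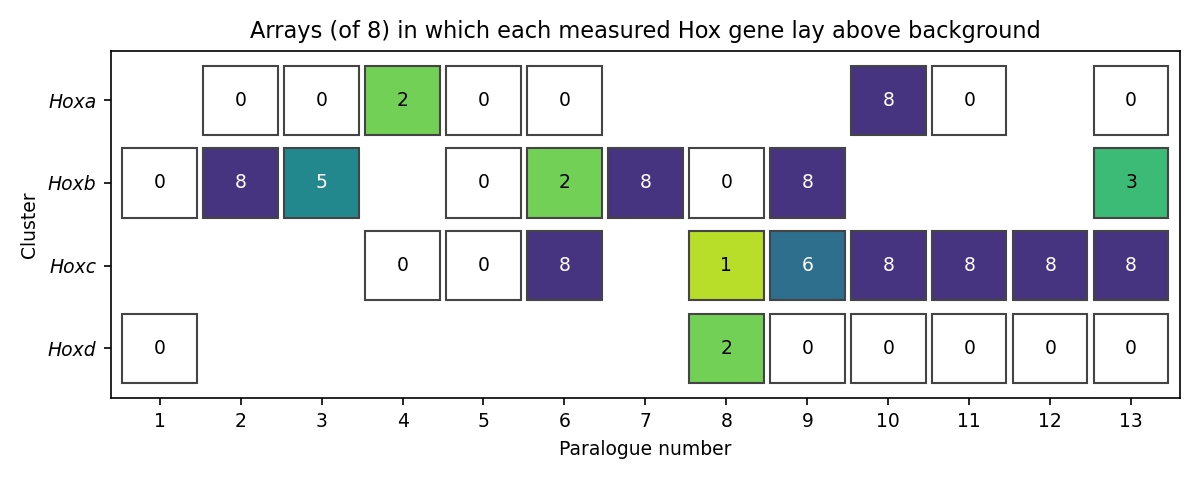
Each square is a Hox gene, placed by cluster (rows) and paralogue number (columns), with the number of the 8 arrays in which it lay above background; the 33 measured genes are drawn. Detection in all 8 arrays is found at Hoxa10, Hoxb2, Hoxb7, Hoxb9, Hoxc6 and Hoxc10 to Hoxc13, and at no Hoxd gene.

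The Hoxc cluster was read along its order in RefSeq. Hoxc13, Hoxc12, Hoxc11 and Hoxc10, which lie next to each other at the posterior end, were above background in 8 of 8 arrays each. Hoxc9 followed with 6, Hoxc8 with 1, Hoxc6 with 8, and Hoxc5 and Hoxc4 with 0. Hoxc12, a posterior gene also known from hair follicles, exceeded the background level by 6.14 to 7.08 on the log2 scale. It was at 12.30 with GHMT, 12.47 with diclofenac, 12.26 with the EP4 antagonist and 11.94 with diclofenac plus PGE2 in set 1. In set 2 it was at 12.14 with GHMT, 12.42 with the EP4 antagonist, 13.04 with the TGFb inhibitor and 12.96 with the Wnt inhibitor. The TGFb and Wnt inhibitor arrays were the highest of all 8, and the ranges of the sets overlapped.

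Hoxc13, needed for hair and nail formation, was at 6.35 with GHMT, 6.62 with diclofenac, 6.06 with the EP4 antagonist and 5.88 with diclofenac plus PGE2 in set 1. In set 2 it was at 7.15, 7.79, 7.53 and 8.08 with GHMT, the EP4 antagonist, the TGFb inhibitor and the Wnt inhibitor. Every array of set 2 was above every array of set 1, and the set 1 array with diclofenac plus PGE2 exceeded its background level by only 0.08. Hoxc10, a patterning gene of the lumbar region and hindlimb, was at 7.59, 7.93, 7.71 and 7.97 with GHMT, diclofenac, the EP4 antagonist and diclofenac plus PGE2 in set 1. In set 2 its values of 8.43, 8.31, 8.40 and 8.32 (GHMT, EP4 antagonist, TGFb inhibitor, Wnt inhibitor) were all higher and only 0.12 apart. Hoxc11, which patterns limb and kidney together with its paralogues, stayed within 6.36 to 6.78 over all 8 arrays, with overlapping sets.

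Of the 5 measured Hoxc genes from Hoxc4 to Hoxc9, 3 were lower in every array of set 2 and Hoxc4 and Hoxc5 had overlapping sets. Hoxc6, a thoracic gene, was at 7.99 with GHMT, 8.05 with diclofenac, 8.50 with the EP4 antagonist and 8.04 with diclofenac plus PGE2 in set 1. In set 2 it was at 7.09 with GHMT, 7.23 with the EP4 antagonist, 7.53 with the TGFb inhibitor and 6.74 with the Wnt inhibitor. All set 2 arrays were below all set 1 arrays. Hoxc9, which specifies thoracic identity, was above background in all 4 arrays of set 1 (6.20 to 6.70) and in 2 of 4 of set 2 (5.67 to 5.94). Hoxc8, its neighbour, was at 5.66 to 5.85 in set 1, with GHMT alone above background, and at 4.56 to 5.19 in set 2, under background. Hoxc4 (3.79 to 4.53) and Hoxc5 (3.51 to 4.66) lay at background throughout.

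In the Hoxb cluster detection was scattered along the cluster. Hoxb9, a gene of the thoracic level, was at 6.99 with GHMT, 7.47 with diclofenac, 7.46 with the EP4 antagonist and 7.24 with diclofenac plus PGE2 in set 1. In set 2 it was at 8.86 with GHMT, 8.63 with the EP4 antagonist, 8.48 with the TGFb inhibitor and 8.21 with the Wnt inhibitor. The sets did not overlap, and GHMT was the lowest array of set 1 but the highest of set 2. Hoxb7 lay within 7.60 to 8.02 in all 8 arrays with overlapping sets. Hoxb2, an anterior gene that acts in the hindbrain, was at 6.63, 6.63, 6.62 and 7.21 with GHMT, diclofenac, the EP4 antagonist and diclofenac plus PGE2 in set 1, and at 6.61, 6.53, 6.47 and 7.08 with GHMT, the EP4 antagonist, the TGFb inhibitor and the Wnt inhibitor in set 2. A single array stood above the rest of its set: diclofenac plus PGE2 in set 1 and the Wnt inhibitor in set 2. Hoxb13, whose loss lengthens the mouse tail, was at 5.82, 5.29, 5.49 and 5.82 with GHMT, diclofenac, the EP4 antagonist and diclofenac plus PGE2 in set 1, and at 5.17, 5.10, 6.22 and 5.62 with GHMT, the EP4 antagonist, the TGFb inhibitor and the Wnt inhibitor in set 2. It was above background in 3 arrays: GHMT and diclofenac plus PGE2 of set 1 and the TGFb inhibitor of set 2. Hoxb3 (5.67 to 6.34) was above background in 5 arrays and Hoxb6 (4.60 to 6.50) in 2, while Hoxb1, Hoxb5 and Hoxb8 lay at background in all 8.

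Hoxa10, which specifies the lumbar region and acts in the uterus, was the only Hoxa gene detected in all arrays. Its neighbours on the posterior side, Hoxa11 (4.71 to 5.04) and Hoxa13 (3.97 to 4.43), lay at background throughout, as did Hoxa2, Hoxa3, Hoxa5 and Hoxa6. Hoxa4 (5.09 to 6.26) was above background in 2 arrays. The RefSeq promoter table (GRCm38.p6; 250 bases before to 50 after a start) matched 22 Hox genes with 24 windows, and 17 of these genes were measured. Of the 9 genes detected throughout, it matched Hoxa10. Its 2 windows are shown because Hoxa10 gave the largest treatment difference among the detected genes, and that of Hoxa11 because it is the neighbour at background. Capitals mark matches to motifs searched on both strands: TGACGTCA (CRE, the cAMP response element), TGACG (its core, contained in CRE), CTTTGAA (TCF/LEF, used by Wnt signalling), CAGACA (Smad, used by TGFb) and TTTATGG (posterior Hox and Cdx type).
Hoxa10, upstream start, chr6:52240805-52241104, minus strand: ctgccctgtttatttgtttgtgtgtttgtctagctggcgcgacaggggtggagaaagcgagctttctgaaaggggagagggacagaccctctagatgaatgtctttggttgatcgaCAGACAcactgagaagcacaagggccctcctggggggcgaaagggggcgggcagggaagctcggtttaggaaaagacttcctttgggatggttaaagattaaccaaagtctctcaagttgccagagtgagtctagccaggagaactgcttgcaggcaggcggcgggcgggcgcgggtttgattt
Hoxa10, downstream start, chr6:52234890-52235189, minus strand: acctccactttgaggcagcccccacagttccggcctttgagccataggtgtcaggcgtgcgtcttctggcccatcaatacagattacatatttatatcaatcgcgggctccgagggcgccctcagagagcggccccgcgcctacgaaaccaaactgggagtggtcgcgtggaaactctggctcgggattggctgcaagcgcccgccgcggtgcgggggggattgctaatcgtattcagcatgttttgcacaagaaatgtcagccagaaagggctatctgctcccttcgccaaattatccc
Hoxa11, chr6:52245761-52246060, minus strand: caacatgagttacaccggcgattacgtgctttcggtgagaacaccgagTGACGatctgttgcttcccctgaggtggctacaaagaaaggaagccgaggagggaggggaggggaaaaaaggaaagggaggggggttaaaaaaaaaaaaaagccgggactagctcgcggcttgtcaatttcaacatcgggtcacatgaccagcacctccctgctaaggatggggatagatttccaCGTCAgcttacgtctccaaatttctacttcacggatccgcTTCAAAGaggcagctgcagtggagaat
The upstream Hoxa10 window held 1 Smad match, at position -134 from the start, and the downstream window held 0 matches to these 5 motifs. The Hoxa11 window held 2 TGACG matches and 1 TCF/LEF match. Over all 32851 windows of the table, 21.0% held CAGACA, 20.8% TGACG, 5.14% CTTTGAA, 2.75% TTTATGG and 1.79% TGACGTCA. Among the 24 Hox windows 4 held CAGACA, 7 TGACG, 2 CTTTGAA, 1 TTTATGG and 0 TGACGTCA. The Hoxa10 windows had 57.3% (downstream) and 54.3% (upstream) G and C with 21 and 12 CpG pairs, against medians of 52.7% and 7 over all windows. A match is a description of letters and not a binding site.

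The Hoxd genes, which pattern limbs, digits and the genital tubercle at their posterior end, lay at or near background in these cultures. Hoxd9 to Hoxd13 and Hoxd1 lay at background in all 8 arrays, at 2.74 to 3.58 for Hoxd13 and 3.03 to 4.61 for Hoxd12. Hoxd8 (5.11 to 5.97) was above background in 2 arrays of set 2. Of the 4 group 13 paralogues, Hoxc13 was thus detected in all arrays, Hoxb13 in 3, and Hoxa13 and Hoxd13 in 0.

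**Figure D2:**
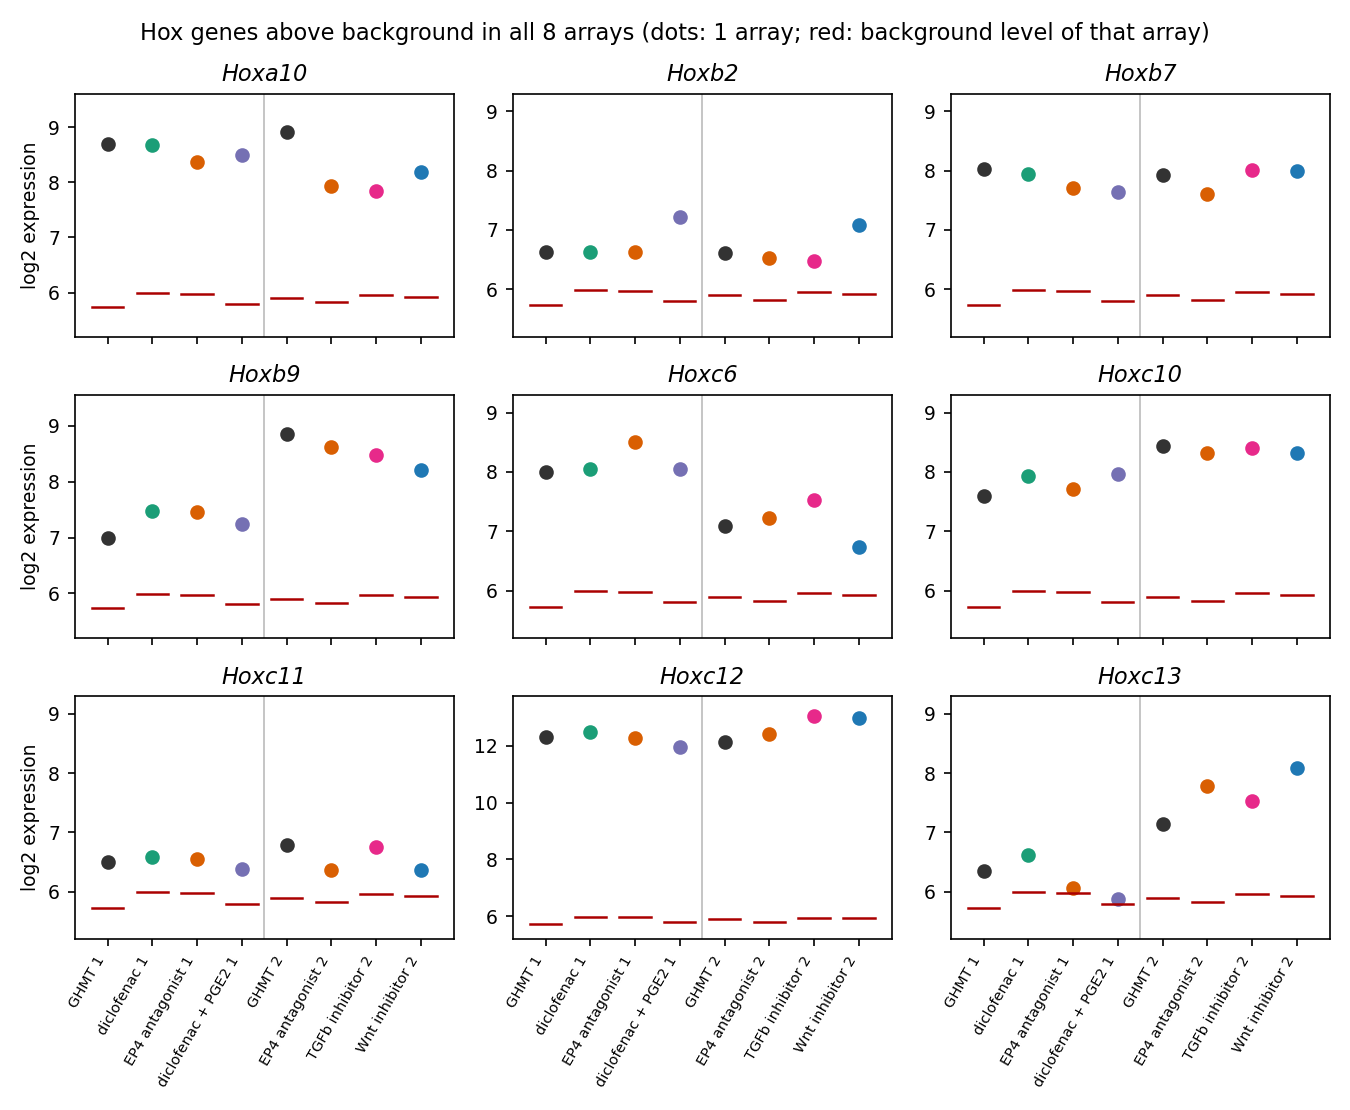
Log2 expression (vertical axes) of the 9 Hox genes above background in all arrays, 1 dot per array. The upper end of the axis differs slightly for Hoxa10 and Hoxb9 and most for Hoxc12. Set 1 is left and set 2 right of the grey line, and the background level of each array is in red. Hoxb9, Hoxc10 and Hoxc13 are higher and Hoxc6 is lower in every array of set 2, and Hoxa10 of set 2 is highest with GHMT.

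The TTF sets were compared as a description, without a test. By the titles the arrays of a set share a fibroblast number, and the other treatments differ between the sets. Fibroblasts and any other batch that goes with the set number cannot be told apart. Of the 33 genes, 14 had sets that did not overlap, 3 higher and 11 lower in set 2. Over all clusters the share was 38.9% (12.9% higher, 26% lower), so the count of Hox genes was near that of any genes. Of the 11 lower genes, 8 lay at background in all 8 arrays, the range in which set 2 was lower over all clusters too. Among the 9 genes detected throughout, Hoxb9, Hoxc10 and Hoxc13 were higher and Hoxc6 was lower in set 2. These 4 kept their order after quantile normalization and after each array's median was subtracted.

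In matched cultures Hoxb9 was higher in set 2 by 1.87 with GHMT (3.66-fold) and 1.17 with the EP4 antagonist (2.25-fold). Hoxc13 was higher by 0.80 with GHMT (1.74-fold) and 1.73 with the EP4 antagonist (3.32-fold), and Hoxc10 by 0.84 and 0.60. Hoxc6 differed by -0.90 with GHMT (1.87-fold lower) and -1.27 with the EP4 antagonist (2.41-fold lower). Hoxc9 differed by -0.91 and -0.84, with both arrays of set 2 at or near background. The median over all clusters was itself shifted by -0.16 in both pairs, and with array medians subtracted these differences were 2.01 and 1.36 for Hoxb9, 0.94 and 1.92 for Hoxc13, 0.98 and 0.79 for Hoxc10, and -0.76 and -1.08 for Hoxc6. At 2-fold or more, 2 of 33 Hox genes differed between the GHMT arrays (Hoxb9 higher, Hoxd12 lower and at background) against 13.7% of all clusters (6.47% higher, 7.22% lower), and 5 of 33 between the EP4 antagonist arrays against 12.6%. Hoxb2 (-0.02 and -0.09) and Hoxb7 (-0.09 and -0.10) were nearly level between the sets as deposited, were at 0.05 to 0.12 with medians subtracted, and were at -0.30 to -0.10 after quantile normalization, so their direction depends on the scaling.

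**Figure D3:**
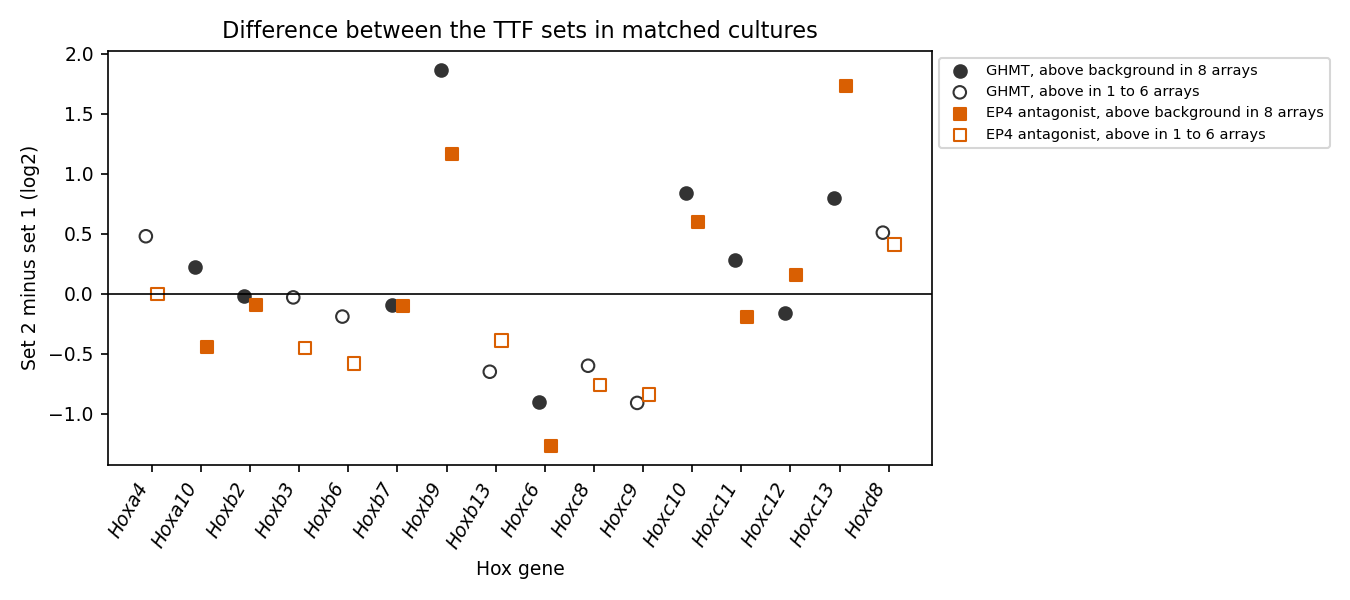
Difference in log2 expression of set 2 minus set 1 (vertical axis) for GHMT (circles) and EP4 antagonist (squares) arrays, for the 16 Hox genes above background in at least 1 array; filled symbols are genes detected in all 8. Hoxb9, Hoxc10 and Hoxc13 lie above 0 and Hoxc6, Hoxc8 and Hoxc9 below 0 in both pairs.

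The EP4 antagonist was compared with GHMT over both sets (n = 2 each), to see what blocking the receptor does to the Hox pattern. None of the 33 Hox genes passed at an adjusted p under 0.05 by limma, either without a block or with the set number as one. Over all clusters 0% passed in either fit, although 144 without and 1243 (5.60%) with the block had an unadjusted p under 0.05. Hoxa10 was at 8.69 with GHMT and 8.37 with the EP4 antagonist in set 1, and at 8.91 and 7.93 in set 2. It was lower with the antagonist in both sets, by 0.65 on average (-0.65 ± 0.24, SE with the set as a block, n = 2 and 2; unadjusted p = 0.0352, adjusted p = 0.866 by limma). Its 95% interval ran from -1.24 to -0.06 in that fit. In the main fit, without the block, it ran from -1.51 to 0.21 (unadjusted p = 0.119 by limma). Hoxb6 (-0.80 ± 0.21, adjusted p = 0.771 by limma) and Hoxd10 (-0.63 ± 0.21, adjusted p = 0.862) also had unadjusted p under 0.05 with the block. Hoxd10 lay at background in all 4 arrays and Hoxb6 in 3 of them, with GHMT of set 1 just above. Without the block, 0 Hox genes had an unadjusted p under 0.05.

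For the other 8 genes detected throughout, the differences were small against their intervals. Hoxc12 differed by 0.12 (interval -0.39 to 0.63), Hoxc13 by 0.18 (-0.50 to 0.85), Hoxc6 by 0.33 (-0.19 to 0.84) and Hoxb9 by 0.12 (-0.48 to 0.72). Hoxb7 differed by -0.33 (-0.81 to 0.16) and Hoxc11 by -0.19 (-0.72 to 0.35), while Hoxb2 was at -0.05 (-0.53 to 0.44) and Hoxc10 at 0.00 (-0.50 to 0.50). These are intervals for single genes, without adjustment over clusters, and differences inside them are compatible with these arrays. The median over the 33 genes was -0.02, with 13 positive and 20 negative values, and that over all clusters was -0.01.

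A wider comparison asked the same of the whole PGE2-EP4 route. The inhibited arm held the diclofenac array and both EP4 antagonist arrays (n = 3), and the active arm held both GHMT arrays and that of diclofenac plus PGE2 (n = 3). Each arm thus mixes treatments. By limma 0 of 33 Hox genes passed without the block, where 0% of all clusters passed (469 clusters and 0 Hox genes had an unadjusted p under 0.05), and 0 passed with it, where 0.378% did. Hoxc13 had the largest positive difference among the 33 (0.36 ± 0.21, interval -0.10 to 0.83, adjusted p = 0.707 by limma with the block). Hoxa10 was at -0.37 ± 0.21 (-0.84 to 0.10; adjusted p = 0.707) and Hoxc12 at 0.26 ± 0.16 (-0.11 to 0.62; adjusted p = 0.751). The Hoxa10 value rested on set 2: without either the GHMT or the EP4 antagonist array of that set, it was -0.07 with the block. Hoxc13 was at 0.23 without either of them with the block, and at -0.12 without the EP4 antagonist array of set 2 in the fit without the block. Hoxc4 (-0.33) and Hoxd10 (-0.44) had an unadjusted p under 0.05 with the block by limma, and both lay at background in all 8 arrays. These are 2 of 33 Hox genes, where 1925 of all clusters (8.67%) had such a p in the same fit. The Hox median was 0.00 with 17 positive and 16 negative values. In the same fit with the block 3 of 6 cardiomyocyte markers passed, namely Actc1 (2.36), Myl7 (2.17) and Myh6, for which no size is given because GHMT of set 2 was at background.

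**Figure D4:**
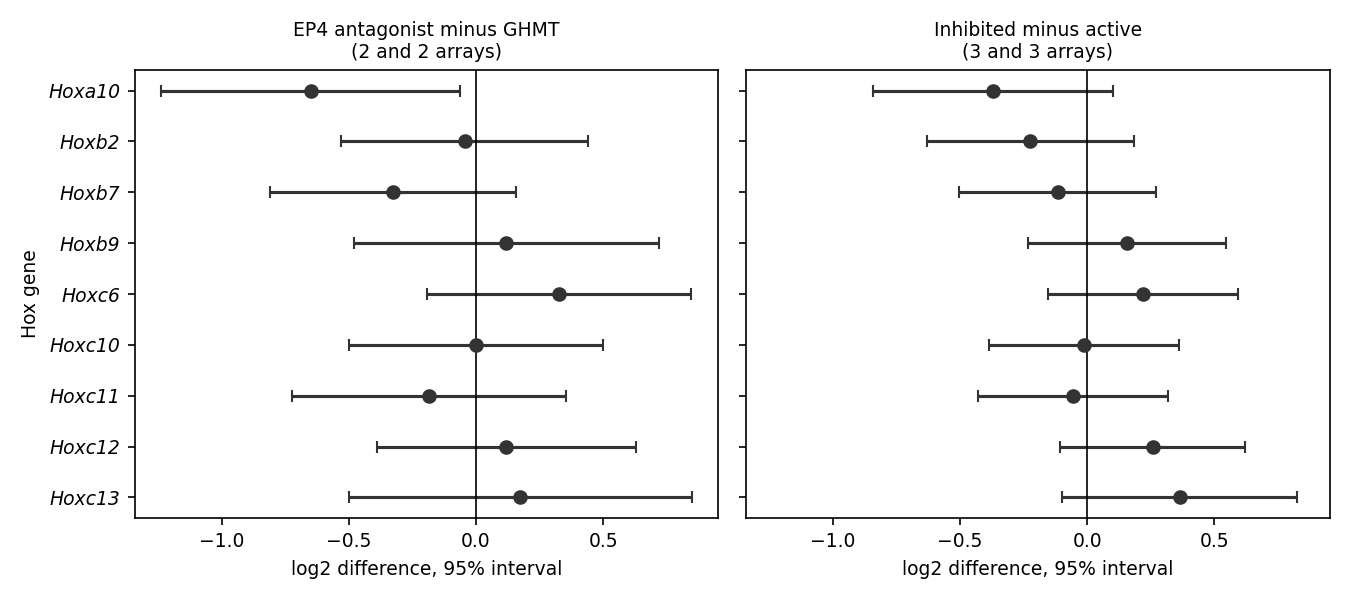
Log2 difference (horizontal axis) with its 95% interval from limma with the TTF set as a block, for the 9 Hox genes detected in all arrays, in the EP4 antagonist comparison (left) and the inhibited against active comparison (right). Only the interval of Hoxa10 on the left, -1.24 to -0.06, does not include 0, and its adjusted p was 0.866. In the main fit, without the block, its interval was -1.51 to 0.21.

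The remaining contrasts set 1 array against 1 within a set, so they have no test. As a measure of spread, the EP4 antagonist contrasts of the sets differed such that a single contrast had an SD of 0.37 over clusters above background in all 4 arrays. In set 1, 0 of 33 Hox genes were 2-fold or more apart from GHMT with diclofenac (1.81% of all clusters), the EP4 antagonist (1.6%) or diclofenac plus PGE2 (1.81%). The same held for diclofenac plus PGE2 against diclofenac (2.16%). In set 2 the count was 0 with the EP4 antagonist (2.74%), 2 with the TGFb inhibitor (1 higher, 1 lower; 5.36% of all clusters, 2.52% lower) and 0 with the Wnt inhibitor (4.1%). The median absolute difference of the Hox genes was 0.15 to 0.29 over these 7 contrasts, and 0.21 to 0.26 over all clusters.

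Hoxa10 was at 8.91 with GHMT of set 2 and at 7.93, 7.85 and 8.18 with the EP4 antagonist, the TGFb inhibitor and the Wnt inhibitor. These are differences of -0.98, -1.06 (2.08-fold lower) and -0.73, and the 3 contrasts share the GHMT array. In set 1 the differences were -0.01 with diclofenac, -0.32 with the EP4 antagonist and -0.20 with diclofenac plus PGE2. The GHMT array of set 2 was the highest of all 8 for this gene. Hoxb13 was the other gene past 2-fold with the TGFb inhibitor, at 6.22 against 5.17 with GHMT, which was at background, and was therefore at least 1.25-fold higher.

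The neighbours Hoxc12 and Hoxc13 had their largest positive differences with the set 2 inhibitors. Hoxc12 was higher by 0.90 with the TGFb inhibitor and 0.82 with the Wnt inhibitor, and by 0.28 with the EP4 antagonist of that set. Hoxc13 was higher by 0.38, 0.93 and 0.64. In set 1, diclofenac plus PGE2 against diclofenac gave -0.53 for Hoxc12 and -0.74 for Hoxc13. The latter was the lowest value of that contrast among the genes detected in all arrays. Hoxc10 and Hoxc11, next in the cluster, were between -0.42 and 0.38 in all 7 contrasts. Hoxb9 was at 0.48, 0.47 and 0.25 against GHMT in set 1 (diclofenac, EP4 antagonist, diclofenac plus PGE2) and at -0.23, -0.38 and -0.65 in set 2 (EP4 antagonist, TGFb inhibitor, Wnt inhibitor). Contrasts within a set share their GHMT array. Hoxb2 was at 0.58 with diclofenac plus PGE2 and 0.47 with the Wnt inhibitor, and at -0.14 to 0.00 with the others against GHMT.

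**Figure D5:**
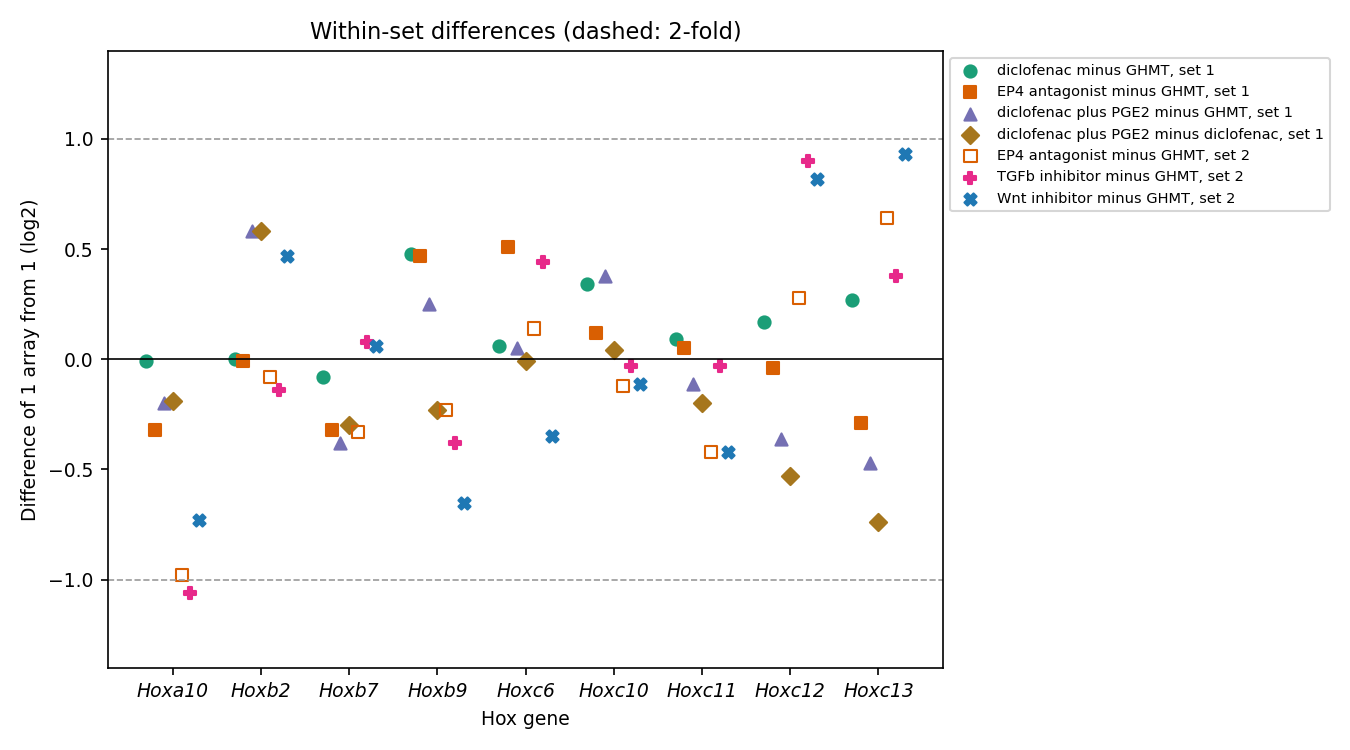
Difference of 1 array from 1 in log2 expression (vertical axis) for the 9 Hox genes detected in all arrays, 1 symbol per contrast, with dashed lines at 2-fold. Only Hoxa10 with the TGFb inhibitor (-1.06) passes a dashed line, and Hoxc12 and Hoxc13 come closest on the positive side (0.90 and 0.93).

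Several fibroblast and cardiomyocyte markers differed by more in the same contrasts, while the endothelial and keratinocyte markers lay at background throughout. With the TGFb inhibitor, 5 of 11 fibroblast markers were 2-fold or more lower than with GHMT, such as the collagen gene Col1a2 (-2.81), and 3 were higher, such as Thy1 (1.23). Against GHMT, 4 were lower with the EP4 antagonist of set 1 and 2 with that of set 2. With diclofenac 2 were lower, and with diclofenac plus PGE2 1. None was higher in these contrasts. The Wnt inhibitor against GHMT, and diclofenac plus PGE2 against diclofenac, each had 2 higher and 0 lower. Of the 6 cardiomyocyte markers 5 were 2-fold or more higher with diclofenac, with the TGFb inhibitor and with the Wnt inhibitor, and 4 with the EP4 antagonist in each set. With diclofenac plus PGE2, 1 was higher and 1 lower than with GHMT, and 4 were lower than with diclofenac. In set 2 the counts include Myh6, which was at background with GHMT. It was at least 2.56-fold higher with the EP4 antagonist, 1.98-fold with the TGFb inhibitor and 1.92-fold with the Wnt inhibitor. The shares over all clusters are those given above for these contrasts. The summed log2 level of the cardiomyocyte markers was 69.7 to 82.2 in set 1 and 67.5 to 80.05 in set 2, and that of the fibroblast markers 156.5 to 164.1 and 152.1 to 159.8. Their part in the Hox differences was not tested. The adipocyte regulator Pparg was at least 1.94-fold higher with the TGFb inhibitor and at least 2.34-fold higher with the Wnt inhibitor, where GHMT was at background.

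Genes that act with or on the Hox clusters, and other regional factors, were taken from 4 lists. Of the 8 measured cofactors (Pbx, Meis and Pknox), 6 were above background in all 8 arrays, among them Meis1 (7.91 to 9.21), Meis2 (9.06 to 9.99) and Pbx3 (7.50 to 8.36). Of 21 Polycomb and Trithorax regulators 16 were, such as Ezh2, the H3K27 methyltransferase (7.33 to 8.67), and Men1 (9.28 to 10.27). Of 20 genes of Cdx, retinoic acid and Gdf11 input 8 were, and of 31 other regional transcription factors 10, such as Tbx15 (9.51 to 11.03), Prrx1 (12.96 to 15.25) and En1 (7.85 to 9.08). The share of all clusters above background in all 8 arrays was 39.7%. The counts of these last lists were near or under it. None of the members of the 4 lists passed in either tested comparison by limma, without or with the block (0% to 0.378% of all clusters). Their medians were -0.06, -0.11, -0.17 and 0.04 for the EP4 antagonist, and 0.02, -0.07, -0.04 and 0.06 for inhibited against active, where all clusters had -0.01.

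Some of them were 2-fold or more apart in single contrasts. Pknox2, a cofactor, was at 6.72 with diclofenac plus PGE2 against 7.77 with GHMT and 7.77 with diclofenac (-1.05 each), and at least 1.21-fold lower with the TGFb inhibitor. Among the Polycomb genes Jarid2 was at -1.17 with the EP4 antagonist of set 2 and Ezh2 at -1.19 with the TGFb inhibitor. Jarid2 was slightly higher with the EP4 antagonist of set 1, at 9.06 against 8.91 with GHMT. Aldh1a2, which makes retinoic acid, was at 9.02 with GHMT of set 2 and at 7.27 with the Wnt inhibitor (-1.75) and 7.99 with the EP4 antagonist (-1.03), and in set 1 at -1.16 with diclofenac plus PGE2 against diclofenac. With the EP4 antagonist of set 1 it was higher, at 9.38 against 8.73 with GHMT. The retinoic acid binding genes Crabp1 (-1.60) and Crabp2 (-1.20) were lower with the TGFb inhibitor. Crabp1 was also lower with the EP4 antagonist of set 1 (-1.18), and Crabp2 with diclofenac (-1.07) and with diclofenac plus PGE2 (-1.21). In set 2 both were higher with the EP4 antagonist than with GHMT, Crabp1 at 12.71 against 12.24 and Crabp2 at 8.83 against 8.48. Rxrb was at least 1.72-fold lower with the Wnt inhibitor. Of the regional factors, Tbx2 was at 1.51 with diclofenac and 1.32 with the EP4 antagonist in set 1 and at -1.26 with the Wnt inhibitor. GHMT of set 1 was at 7.34 for Tbx2, and diclofenac plus PGE2 was higher too, at 8.31. In set 2 the EP4 antagonist array was the lower one, at 9.27 against 9.89 with GHMT. Twist2 was at -1.37 with the EP4 antagonist of set 2, Prrx2 at 1.32 with the TGFb inhibitor, and Shox2 at least 1.84-fold lower with the Wnt inhibitor. Twist2 was higher with the EP4 antagonist of set 1, at 8.60 against 8.33 with GHMT.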

How the data were processed

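Biotin-labelled total RNA of 8 cultures was hybridised to Clariom S Mouse arrays, 1 sample per array. The authors deposited log2 expression values, made by the SST-RMA method of Affymetrix Expression Console 1.4, which corrects background and scales arrays to each other, per the labels and the submitters' processing notes. Neither the genome build nor whether both sets were normalized together is stated there. The table held 28846 rows, 6640 of them control probe sets. Symbols came from GEO's platform annotation (19572 clusters with 1 symbol each, 0 with several; the other clusters are unnamed here).

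R 4.3.3 and limma 3.58.1 (lmFit, eBayes) gave two-sided tests, adjusted by Benjamini and Hochberg's method over all 22206 clusters at 0.05, and the steps were tested on simulated data. The main fit had no block. The set number, which the titles attach to the fibroblasts, pairs the samples: same-numbered GHMT and EP4 antagonist arrays deviated together from their groups (r = 0.724 across clusters), and arrays correlated at 0.986 to 0.995 within and 0.974 to 0.984 between sets. As the block moved the count of calls from 0 to 84 in the inhibited against active comparison, its values are given. Standard errors and intervals are from it unless the main fit is named. For the 9 genes detected throughout, the intervals of the main fit are wider. In the EP4 antagonist comparison they reach 0.81 to 1.53 to either side, against 0.48 to 0.67 with the block. Whether the sets are independent experiments is not labelled, and p-values then speak only of the variation among these arrays, which may be technical. Where the lower array was at background, a fold is a bound against that level ("at least"). Members, lists and rules were chosen with earlier results of these data known. All 39 Hox genes are named by rule. Per-array values were due for genes past a test or 2-fold apart within a set or between the GHMT arrays, and those of the other genes detected in all arrays were added after their values were seen. Of the other lists, at most 4 genes each were named for differences of 2-fold or more, largest first, and the genes named for their level alone were chosen after their values were seen. The alternatives were the set block, a trend and robust prior, quantile normalization, median subtraction, filters on low values, other background limits and leaving out each array.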

Additional observations from a re-analysis of the deposited data

Results flagged for a closer look

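Of the 9 Hox genes detected in all arrays, 5 had EP4 antagonist differences of opposite direction in the TTF sets. Among all clusters above background in all 8 arrays the share with opposite directions was 44.9%, so the count of Hox genes is near that of any genes. With 1 array per group in each set, the difference between the sets was not tested. Hoxc13 was at -0.29 in set 1, with the antagonist array close to its background level, and at 0.64 in set 2. Hoxb9 was at 0.47 and -0.23, and Hoxc11 at 0.05 and -0.42. Hoxc12 was at -0.04 and 0.28, and Hoxc10 at 0.12 and -0.12. The SD of a single contrast over clusters above background was 0.37, and of these 10 values those of Hoxc13 in set 2, Hoxb9 in set 1 and Hoxc11 in set 2 exceed it in size. No group had the 4 samples needed to look for single outlying arrays.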

How the results depend on the processing

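In both tested comparisons 0 Hox genes passed in the main fit, and 0 passed with the replicate block (the TTF set), with a trend and robust prior, after quantile normalization, with clusters above background in at least 2 arrays, or without any single array (0 to 0), each with and without the block where it could be fitted. With 1 array left out of the EP4 antagonist comparison no residual degrees of freedom remain beside the block, and without the block a lone array is assumed to vary like the other group. Over all clusters the count was 0 in the main fit of the EP4 antagonist comparison, 0 with the replicate block, 8 with the block plus a trended, robust prior, 23 with the block after quantile normalization, 1 with the block and the filter, and 1 to 25 without single arrays. In the inhibited against active comparison it was 0, then 84 with the replicate block, 143 with the trend and robust prior too, 80 after quantile normalization, 123 with the filter, 0 to 3 without single arrays and 0 to 192 without single arrays with the block. Leaving out 1 array changed the direction of single values, none of which passed a test. In the EP4 antagonist comparison the ranges were -0.815 to 1.055 for Hoxb9, -0.31 to 0.96 for Hoxc6 and -0.69 to 1.04 for Hoxc13. Hoxc10, with a difference of 0 in the main fit, ranged from -0.42 to 0.42, and Hoxa10 kept its direction (-0.87 to -0.43). In the inhibited against active comparison, without the block, they were -0.23 to 0.74 for Hoxb9, -0.088 to 0.57 for Hoxc6, -0.22 to 0.20 for Hoxc10, -0.14 to 0.055 for Hoxc11 and -0.12 to 0.745 for Hoxc13. With the block Hoxc10 turned to 0.034 without the EP4 antagonist array of set 1, 0.08 without that of diclofenac plus PGE2 and 0.04 without either set 2 array, when Hoxc11 turned to 0.125. Of the 9 genes detected throughout, 6 values changed direction among 99 gene and setting pairs in the first comparison and 17 among 171 in the second. The 6 include none of Hoxc10, whose difference of 0 had no direction to change. The 2 Hox genes 2-fold apart in the 7 single-array contrasts became 1 after quantile normalization, when Hoxb13 no longer passed (Hoxa10 was at -1.01). The 14 Hox genes whose sets did not overlap became 9 after quantile normalization, 4 higher and 5 lower in set 2, with Hoxb9, Hoxc10, Hoxc13 and Hoxc6 among them, and were 14 with array medians subtracted. Genes above background in all 8 arrays numbered 9, 6 with the highest background probe set as the limit and 11 with the array median, when Hoxb3 and Hoxc9 joined. The number of arrays, and signal close to background for Hoxc13 of set 1, Hoxc9, Hoxb13 and Hoxb6, limit these values.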

Other observations

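The array also held 2 antisense transcripts of the Hox clusters under their own symbols, which the choice by symbol left out. Both lay at background in all 8 arrays: Hoxa11os at 4.91 to 5.75, beside Hoxa11 at 4.71 to 5.04, and Hoxd3os1 at 3.50 to 4.34. Cbx2, the Polycomb subunit, was above background in 1 array (5.17 to 5.74). The retinoic acid receptor gene Rarb (4.16 to 6.73) and the retinoic acid degrading enzyme Cyp26b1 (4.58 to 7.25) were each above background in 4 of 8 arrays, Rarb in those of set 1 and Cyp26b1 in those of set 2. Sets that did not overlap, as for both of these genes, were found for 38.9% of all clusters.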
